A study of Homo sapiens with 22 samples.

Results

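The heat shock proteins of the cytosol and the chaperonin TRiC were examined as a list of 44 genes, taken by gene symbol by a rule that uses no measured value, although the list was drawn up with earlier results of these data known. The list held 2 heat shock transcription factors, 9 Hsp70 and Hsp110 chaperones, 2 Hsp90 chaperones, 4 small heat shock proteins, 7 J-domain co-chaperones, 6 genes of the BAG family, 6 co-chaperones of Hsp90 and Hsp70, and 8 TRiC subunits. Of these symbols, 43 had a row among the 34679 genes of the table, and HSPA1B was not analysed here. HSPA14 had 2 rows under different Ensembl IDs, so there were 44 rows, of which 42 passed the filter on low counts, as did 16601 genes of the whole table. The 2 rows that did not pass were those of HSPA1A and CRYAB.

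The RNA came from LUHMES cells, a mesencephalic line of human origin that can be differentiated into neurons and that the series describes as differentiated. The cells were wild type or overexpressed alpha-synuclein, the protein that aggregates in Parkinson's disease. The 6 groups were untreated wild-type cells (4 libraries), wild-type cells given 6-OHDA (4), untreated alpha-synuclein cells (4), alpha-synuclein cells given 6-OHDA (4), and alpha-synuclein cells given 6-OHDA with quercetin (3) or with rutin (3). 6-OHDA (6-hydroxydopamine) is a dopamine analogue that oxidises inside cells and is toxic to catecholamine neurons. Quercetin is a plant flavonol, and rutin is its glycoside with the sugar rutinose. The construct that drove alpha-synuclein, the clone, and the agents' doses and times were not given in the sources used here. All values below were read from 1 fit over the whole table with edgeR's quasi-likelihood test, in which a call is an adjusted p (Benjamini-Hochberg) under 0.05. Levels are CPM, counts relative to the TMM-scaled library size, and changes are log2 fold changes with an SE. That SE was taken back from the test, as the absolute change divided by the square root of its F value. The 95% intervals of changes use this SE with 16 degrees of freedom, so both are approximate, most of all at few counts.

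Heat shock factor HSF1 is held inactive by chaperones in unstressed cells, and when unfolded proteins occupy those chaperones it forms trimers that bind heat shock elements, inverted repeats of the unit GAA, in front of its target genes. Hsp70 proteins bind exposed hydrophobic stretches of unfolded chains in a cycle that J-domain proteins start and nucleotide exchange factors such as several BAG proteins and Hsp110 complete. Hsp90 takes over partly folded clients such as kinases and steroid receptors with the help of co-chaperones, small heat shock proteins hold unfolded chains without ATP, and TRiC is a double ring that encloses actin, tubulin and other chains while they fold.

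The proximal promoters of the members were searched for heat shock elements, since these are the sequences through which the family's transcription factors act. RefSeq promoter windows (assembly GRCh38.p14, 250 bases before the start site) were available for 36 members. Elements of 3 units, spelled GAANNTTCNNGAA or TTCNNGAANNTTC and read on both strands, were found in 5 of these 36 members (13.9%) and in 152 of 27305 genes with a window (0.557%). Elements of 2 units, GAANNTTC or TTCNNGAA, which the longer form contains, were found in 17 members (47.2%) and in 14% of all genes. The stretches below show the elements of 3 units in each of the 5 members, and those of 2 units in DNAJB1 and HSPB8, whose changes are described further on. Each is written 5′ to 3′ on the gene's strand, with the units and their 2-base spacers in capitals and the flanking bases in lower case.
HSP90AB1, chr6:44247770-44247798, plus strand: ggagcaggTTCTGGAAGATTCatgggctc
HSP90AB1, chr6:44247823-44247851, plus strand: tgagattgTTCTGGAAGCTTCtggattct
HSP90AA1, chr14:102087112-102087140, minus strand: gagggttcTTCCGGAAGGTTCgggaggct
HSPA8, chr11:123062346-123062374, minus strand: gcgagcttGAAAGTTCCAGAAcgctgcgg
HSPA8, chr11:123062171-123062199, minus strand: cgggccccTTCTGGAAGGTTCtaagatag
CHORDC1, chr11:90223084-90223112, minus strand: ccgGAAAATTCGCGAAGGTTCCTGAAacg
DNAJB6, chr7:157336865-157336893, plus strand: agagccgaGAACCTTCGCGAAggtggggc
DNAJB1, chr19:14518456-14518485, minus strand: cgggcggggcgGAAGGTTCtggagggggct
DNAJB1, chr19:14518426-14518455, minus strand: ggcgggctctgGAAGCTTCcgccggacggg
HSPB8, chr12:119178832-119178861, plus strand: tcatcacctccGAATATTCctgtgacagga
In CHORDC1 the 3 overlapping elements of 3 units form 1 run of 23 bases, and HSP90AB1 and HSPA8 each carry 2 separate elements of 3 units. By GENCODE 29, the printed stretches of HSP90AA1, CHORDC1 and HSPB8 and the second one of HSPA8 lie wholly inside an annotated UTR, and the first one of HSPA8 does in 7 of its bases. A match of letters is a description of the window and shows no binding.

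Library totals ran from 1866396 to 20667106 estimated counts, and 3 counts corresponded to 0.167 to 1.49 CPM, so low values in the shallower libraries rest on few counts. The alpha-synuclein library 6-OHDA replicate 4 stood apart: on the first principal component (40.8% of the variance) it lay at -1.47, while the other libraries with 6-OHDA lay from 35.8 to 45.3 and the untreated ones from -76.4 to -53.5. Calls that changed without it are named below. All 7 neuronal markers were present in every group, and their summed level ran from 6784 to 7492 CPM in untreated and 2099 to 2321 CPM in 6-OHDA-treated wild-type libraries, and from 5757 to 7400 and 2680 to 4168 CPM in the alpha-synuclein libraries. By group means in wild-type cells, MAP2 went from 1865 to 472.8 CPM, DCX from 3045 to 746.3 and STMN2 from 1945 to 728.5, while TUBB3 went from 109.9 to 169.9 and SNAP25 from 105.6 to 81.77. Of the 7 dopaminergic markers, 5 were measurable and PITX3 and LMX1A were at 0 in both untreated groups. Their summed level was 375 to 419.3 CPM untreated and 149.4 to 166.4 CPM treated in wild-type libraries, and 340.5 to 441.8 and 76.46 to 105.6 CPM in alpha-synuclein libraries. Most of that sum was TH, which went by group means from 373 to 126.1 CPM in wild-type and from 347.8 to 67.13 CPM in alpha-synuclein cells. NR4A2 went the other way, from 8.27 to 25.04 CPM and from 9.267 to 16.78 CPM. The summed level of 6 markers of cycling progenitors was 64.87 to 89.76 CPM untreated and 40.38 to 52.62 CPM treated in wild-type libraries, and 67.59 to 120.5 and 29.73 to 56.6 CPM in alpha-synuclein libraries. These markers split in direction. By group means in wild-type cells, MKI67 went from 28.93 to 4.588 CPM, CDK1 from 12.33 to 2.389 and CCNB1 from 19.24 to 13.72. PAX6 went up from 16.35 to 20.63 CPM, TOP2A from 0.6895 to 1.269 and HES1 from 0.1222 to 1.593. In alpha-synuclein cells PAX6 and HES1 were higher and the others lower. The part of these markers in the changes below was not tested, and in bulk RNA fewer cells of a type and less RNA per cell cannot be told apart. Library names place the alpha-synuclein cells given 6-OHDA and both flavonoid groups on a second sequencing lane, so that in 6-OHDA-treated against untreated alpha-synuclein cells, in treated alpha-synuclein against treated wild-type cells and in the interaction, lane and group cannot be told apart.

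With 6-OHDA the members shifted upwards in both genotypes, among them HSP90AB1, HSPB8, HSPB1, DNAJB1, DNAJB4, BAG2, BAG3 and HSPA2, while a smaller set fell. In wild-type cells 22 of the 42 members rose (52.4%, against 25.8% of all 16601 genes tested) and 7 fell (16.7%, against 26.2% of all genes). Their median log2 change was 0.53, beside 0.0713 over all genes tested, and changes ran from -1.13 to 4.90. In alpha-synuclein cells 21 members rose (50%, against 22.9% of all genes) and 5 fell (11.9%, against 24.2%), with a median of 0.35 beside 0.048 over all genes. The libraries of treated and untreated cells did not overlap for 22 members in wild-type cells (52.4%, against 45% of all genes) and 19 in alpha-synuclein cells (45.2%, against 39.1%). Called changes reached 2-fold in 12 members in wild-type cells (28.6%, against 20.3% of all genes) and 13 in alpha-synuclein cells (31%, against 14.3%). Counts by role, below, stand against the same background, 25.8% higher and 26.2% lower of all genes in wild-type and 22.9% and 24.2% in alpha-synuclein cells. Of the 15 tested members with an element of 2 or more units, 10 rose and 1 fell in wild-type cells and 11 rose and none fell in alpha-synuclein cells, and of the 19 with a window and no element, 9 rose and 4 fell, and 8 rose and 4 fell. Of the 5 with an element of 3 units, which are among the 15, 2 rose in wild-type cells and 3 in alpha-synuclein cells, and 0 fell.

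**Figure D1:**
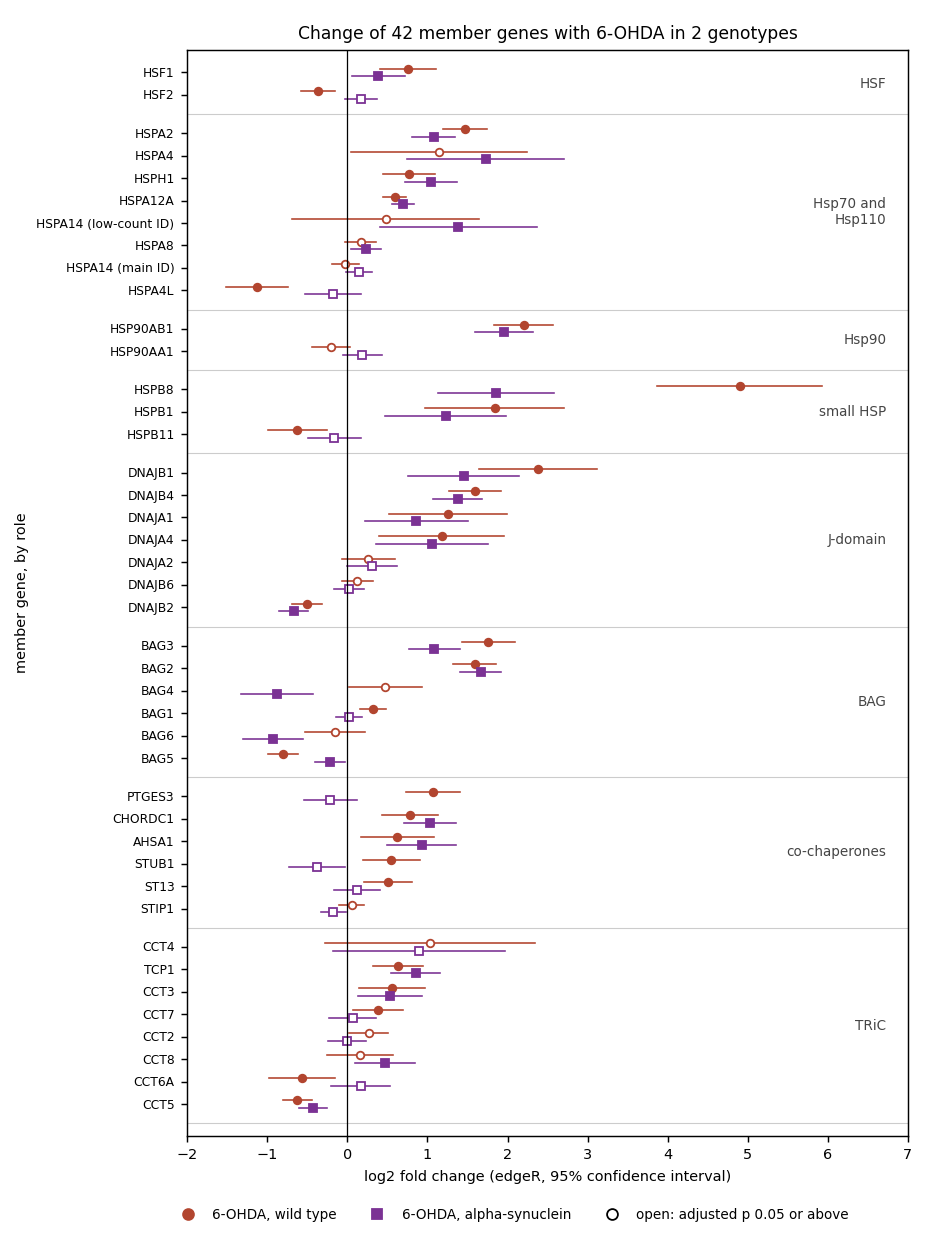
Log2 fold change with 6-OHDA (x axis, edgeR, bars are 95% confidence intervals) of the 42 tested members grouped by role, in wild-type (circles) and alpha-synuclein cells (squares). Filled symbols have an adjusted p under 0.05, and most filled symbols lie right of 0, with HSPB8 in wild-type cells farthest out at 4.90.

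Of the 2 heat shock transcription factors, HSF1 rose and HSF2 fell in wild-type cells. HSF1, the main activator of the heat shock response, stood at 23.6, 22.4, 17.5 and 19.1 CPM in the 4 untreated wild-type libraries and at 33.3, 38.95, 31.6 and 36.2 CPM with 6-OHDA. All treated libraries lay above all untreated ones, a change of 0.76 ± 0.17 (SE, adjusted p = 0.000555). In alpha-synuclein cells HSF1 stood at 24.4, 14.7, 21.8 and 23.8 CPM untreated and 32.2, 27.9, 29.8 and 21.6 CPM treated, where the 2 sets overlapped. That change of 0.39 ± 0.16 (SE, adjusted p = 0.0485) lost its call when any 1 of untreated replicates 2 or 3 or of treated replicates 1, 2 or 3 was left out (0.25 to 0.41). HSF2, a second factor that can form mixed trimers with HSF1, stood at 63.4, 64.8, 71.4 and 77.5 CPM in untreated and 52.8, 55.5, 48.3 and 59.6 CPM in treated wild-type libraries. It fell there without overlap, by 0.36 ± 0.10 (SE, adjusted p = 0.00453). In alpha-synuclein cells its values were 58.8, 83.3, 67.3 and 66.3 CPM untreated and 80.6, 75.2, 76.9 and 78.6 CPM treated, an overlapping set with a change of 0.17 ± 0.09 (SE, adjusted p = 0.135). The change of HSF2 differed between genotypes by 0.54 ± 0.14 (SE, adjusted p = 0.00796), and among treated cells HSF2 was higher with alpha-synuclein in 4 of 4 libraries, by 0.53 ± 0.10 (SE, adjusted p = 0.000606).

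Among the Hsp70 and Hsp110 chaperones 3 of 8 tested rows rose and 1 fell in wild-type cells, and 6 rose and none fell in alpha-synuclein cells. HSPA1A, the classical stress-inducible Hsp70, had 3 counts in 1 untreated wild-type library, 1 count in 1 untreated alpha-synuclein library and none in the 14 libraries given 6-OHDA. At these counts no change could be measured, and HSPA1A and HSPA1B are near-identical genes between which kallisto divides reads. HSPA8, the constitutive Hsp70 of the cytosol, stood at 1365, 1789, 1552 and 1748 CPM untreated and 1839, 1715, 1940.0 and 1754 CPM treated in wild-type cells, and the libraries overlapped. Its change there was 0.17 ± 0.09 (SE, adjusted p = 0.126). With alpha-synuclein, HSPA8 stood at 1534, 1742, 1789 and 1514 CPM untreated and 1984, 1820.0, 2239 and 1695 CPM treated, a rise of 0.23 ± 0.09 (SE, adjusted p = 0.0376) with overlap. That call was lost without untreated replicate 1 or 4 or treated replicate 1 or 3 (0.18 to 0.24). The table also lists 17 processed copies of HSPA8, with 0.24% of its counts.

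HSPH1, an Hsp110 that releases nucleotide from Hsp70, rose in both genotypes. It stood at 234, 271, 282 and 287 CPM untreated and 482, 433, 477 and 444 CPM treated in wild-type cells, without overlap, a change of 0.77 ± 0.15 (SE, adjusted p = 0.000231). In alpha-synuclein cells the values were 244, 322, 284 and 255 CPM untreated and 704, 668, 573 and 339.8 CPM treated. Replicate 4 was the lowest of the treated libraries and still lay above every untreated one, and the change was 1.04 ± 0.15 (SE, adjusted p = 9.03e-06), or 1.23 without that library. HSPA2, an Hsp70 best known from the testis, stood at 12.2, 10.9, 13.99 and 10.4 CPM untreated and 33.8, 33.8, 33.4 and 29.3 CPM treated in wild-type cells. Its rise was 1.47 ± 0.13 (SE, adjusted p = 5.22e-09) there and, from 10.8, 10.3, 9.87 and 10.2 CPM to 24.7, 22.6, 24.2 and 16.5 CPM, 1.08 ± 0.12 (SE, adjusted p = 3.98e-07) in alpha-synuclein cells, with no overlap in either genotype. Without replicate 4 the alpha-synuclein rise of HSPA2 was 1.22. Among treated cells HSPA2 was lower with alpha-synuclein in 4 of 4 libraries, by 0.59 ± 0.13 (SE, adjusted p = 0.00139). The spread between libraries of HSPA12A, a distant Hsp70 relative found in brain, was small: 105, 98.7, 113 and 107 CPM and 168, 160.3, 159 and 149 CPM in untreated and treated wild-type cells. The corresponding alpha-synuclein libraries held 95.5, 109, 95.1 and 95.99 and 158, 156, 166 and 162 CPM. It rose without overlap in both, by 0.59 ± 0.07 (SE, adjusted p = 1.52e-07) and 0.70 ± 0.06 (SE, adjusted p = 1.67e-08).

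HSPA4L, a second Hsp110, went the other way in wild-type cells. It stood at 17.9, 26.4, 17.7 and 17.8 CPM untreated and at 9.92, 9.36, 10.2 and 5.96 CPM treated, and fell by 1.13 ± 0.18 (SE, adjusted p = 2.15e-05). Alpha-synuclein cells held it at 15.4, 14.9, 16.7 and 13.97 CPM untreated and 16.9, 12.5, 12.4 and 11.8 CPM treated, with overlap and a change of -0.18 ± 0.17 (SE, adjusted p = 0.375). The changes differed between genotypes by 0.94 ± 0.25 (SE, adjusted p = 0.00883). HSPA4, the third Hsp110, varied widely within groups, from 1.09 to 18.1 CPM in untreated wild-type cells, and its change was 1.15 (adjusted p = 0.0688) in wild-type and 1.73 (adjusted p = 0.004) in alpha-synuclein cells, the latter without overlap. Its alpha-synuclein call was lost without both untreated libraries whose names carry 4 barcode numbers (1.45, adjusted p = 0.0519). The better covered row of HSPA14, an Hsp70 of the ribosome, changed by -0.03 (adjusted p = 0.802) and 0.15 (adjusted p = 0.12). Its other row held 280 counts in all and is listed with a rise of 1.39 (adjusted p = 0.0174) in alpha-synuclein cells, which was lost without untreated replicate 3 (1.19) or treated replicate 1 (1.20).

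The 2 cytosolic Hsp90 genes separated. HSP90AB1, usually described as the constitutive form, stood at 77.9, 72.7, 69.7 and 83.4 CPM untreated and at 369, 282, 394 and 354 CPM with 6-OHDA in wild-type cells. No treated library came near the untreated range, and the rise of 2.20 ± 0.17 (SE, adjusted p = 1.16e-09) corresponded to 4.6-fold. In alpha-synuclein cells it stood at 70.7, 65.8, 74.6 and 72.2 CPM untreated and 364, 311, 280.0 and 150.4 CPM treated, a rise of 1.96 ± 0.17 (SE, adjusted p = 7.86e-09), or 3.88-fold. Replicate 4 was the lowest treated library, and without it the rise was 2.17 ± 0.10 (SE, adjusted p = 7.24e-13). HSP90AA1, usually described as the stress-inducible form, stood at 1847, 2084, 2079 and 2153 CPM untreated and 1816, 1659, 1901 and 1704 CPM treated in wild-type cells, with overlap. Its change was -0.21 ± 0.11 (SE, adjusted p = 0.139). In alpha-synuclein cells the values were 1737, 2347, 2000.0 and 1865 CPM untreated and 2660.0, 2418, 2288 and 1675 CPM treated, a change of 0.18 ± 0.11 (SE, adjusted p = 0.189) that became a call without treated replicate 4 (0.31 ± 0.09, SE, adjusted p = 0.00931). Among treated cells HSP90AA1 was higher with alpha-synuclein by 0.35 ± 0.11 (SE, adjusted p = 0.0256), a call that was lost without alpha-synuclein replicate 1 (0.31). The promoter windows of both genes hold elements of 3 units, as printed above. How transcripts were summed into the row of HSP90AB1 is not known, so its level may not hold all of its reads. Processed copies take 1.72% of the counts of HSP90AB1 (5 copies) and 0.0206% of those of HSP90AA1 (4 copies).

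Of the 3 small heat shock proteins tested, HSPB8 and HSPB1 rose in both genotypes, at low counts. HSPB8, which works with BAG3 to send clients to autophagy, had 4 counts in all in the untreated wild-type libraries, at 0.163, 0, 0.373 and 0.108 CPM, and stood at 4.66, 7.25, 3.25 and 4.47 CPM with 6-OHDA (7 to 62 counts a library). The ratio of summed counts was 32.2 with an exact 95% interval from 12.2 to 121, which covers counting error alone, and the fitted change was 4.90 ± 0.48 (SE, adjusted p = 2.54e-08). With alpha-synuclein, HSPB8 stood at 0.570, 0.894, 0.837 and 0.742 CPM untreated (45 counts) and 2.65, 5.37, 3.05 and 1.70 CPM treated (74 counts), also without overlap. That rise of 1.86 ± 0.34 (SE, adjusted p = 0.000131) was smaller than in wild-type cells by 3.04 ± 0.65 (SE, adjusted p = 0.00256), a difference of -2.74 without treated replicate 4. The untreated wild-type level behind this difference is 4 counts, over which untreated alpha-synuclein cells lay 5.18 times higher in summed counts (interval 1.89 to 19.8) without passing the test (2.25 ± 0.56, SE, adjusted p = 0.0702). HSPB1, the small heat shock protein Hsp27, stood at 0.978, 2.55, 1.86 and 2.05 CPM untreated and 7.44, 9.06, 7.43 and 1.49 CPM treated in wild-type cells, with treated replicate 4 inside the untreated range. Its rise was 1.84 ± 0.41 (SE, adjusted p = 0.00068). In alpha-synuclein cells the values were 3.71, 2.48, 2.96 and 2.51 CPM untreated and 7.63, 12.9, 4.92 and 3.57 CPM treated, a rise of 1.23 ± 0.36 (SE, adjusted p = 0.00729) with overlap. That call was lost without both untreated libraries whose names carry 4 barcode numbers (1.15, adjusted p = 0.0642). HSPB11, which despite its name is a subunit of the intraflagellar transport machinery, fell by 0.62 (adjusted p = 0.00457) in wild-type cells and changed by -0.16 (adjusted p = 0.411) in alpha-synuclein cells. CRYAB, the lens and muscle chaperone alpha-B crystallin, had 0 counts in untreated wild-type cells and at most 12 in any group.

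The J-domain co-chaperones, which deliver clients to Hsp70 and trigger its ATPase, had 4 of 7 members higher and 1 lower in both genotypes. DNAJB1, the Hsp40 that switches HSF1 off again together with Hsp70, stood at 7.01, 6.92, 3.17 and 5.61 CPM untreated and 27.0, 32.9, 29.7 and 30.3 CPM treated in wild-type cells. The groups lay far apart, with a rise of 2.38 ± 0.35 (SE, adjusted p = 5.89e-06). Alpha-synuclein cells held it at 8.84, 5.02, 4.85 and 7.24 CPM untreated and 24.1, 27.2, 15.9 and 6.23 CPM treated, where replicate 4 fell inside the untreated range and the other 3 lay above it. The rise of 1.45 ± 0.33 (SE, adjusted p = 0.001) became 1.81 ± 0.25 (SE, adjusted p = 3.56e-06) without that library. DNAJB4, a close relative of DNAJB1, stood at 12.4, 17.8, 10.4 and 14.8 CPM untreated and 42.3, 35.6, 45.02 and 45.7 CPM treated in wild-type cells. In alpha-synuclein cells the values were 14.6, 15.7, 14.9 and 12.8 CPM and 43.5, 34.03, 43.6 and 30.3 CPM. It rose without overlap in both, by 1.59 ± 0.15 (SE, adjusted p = 1.85e-08) and 1.38 ± 0.14 (SE, adjusted p = 9.47e-08).

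DNAJB2, a neuronal J-domain protein with ubiquitin-interacting motifs, was the member of this class that fell. It stood at 169.7, 169, 168 and 165 CPM untreated and 120.1, 126, 122.5 and 106 CPM treated in wild-type cells, and at 178, 162, 164 and 152 CPM and 90.5, 102.1, 92.6 and 124.1 CPM in alpha-synuclein cells. The groups did not overlap in either genotype, and the falls were 0.50 ± 0.09 (SE, adjusted p = 5.72e-05) and 0.67 ± 0.09 (SE, adjusted p = 1.59e-06). DNAJA1, a partner of Hsp70 in the cytosol, rose by 1.25 (adjusted p = 0.0044) in wild-type and 0.86 (adjusted p = 0.0241) in alpha-synuclein cells, the latter lost without untreated replicate 4 (0.66) or treated replicate 3 (0.56). Its 582 counts are few, and 6 processed copies in the table hold counts equal to 50% of them, so its level is uncertain. DNAJA4 rose by 1.18 (adjusted p = 0.0103) and 1.06 (adjusted p = 0.0114), the first lost without treated replicate 3 (0.83). The second was lost without both untreated libraries whose names carry 4 barcode numbers (0.90, adjusted p = 0.107). DNAJA2 changed by 0.26 (adjusted p = 0.165) and 0.31 (adjusted p = 0.0858), and DNAJB6, a suppressor of polyglutamine aggregation, by 0.12 (adjusted p = 0.259) and 0.02 (adjusted p = 0.876). No call was made for these 2 genes, although the window of DNAJB6 holds an element of 3 units.

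The genes of the BAG family split in direction. The change differed between genotypes for 5 of the 6, against 11.2% of all genes with a higher and 10.5% with a lower change in alpha-synuclein cells, and the calls of BAG1, BAG3 and BAG6 were lost without some single libraries, as given below. BAG3, which links Hsp70 and small heat shock proteins to selective autophagy, stood at 78.6, 91.4, 83.7 and 83.6 CPM untreated and 306, 288, 294 and 253 CPM treated in wild-type cells. It rose by 1.76 ± 0.15 (SE, adjusted p = 4.78e-09), without overlap. In alpha-synuclein cells it stood at 97.1, 91.8, 92.6 and 87.3 CPM untreated and 223, 224, 221 and 118 CPM treated, and replicate 4 lay well below the other 3 treated libraries. The rise of 1.08 ± 0.15 (SE, adjusted p = 4.42e-06) was smaller than in wild-type cells by 0.68 ± 0.21 (SE, adjusted p = 0.0254), and without replicate 4 the rise was 1.28 and the difference was -0.49 ± 0.14 (SE, adjusted p = 0.0155). The call of that difference was lost without wild-type 6-OHDA replicate 1, 2 or 3 (-0.63 to -0.60). BAG2, an inhibitor of the ubiquitin ligase CHIP, stood at 18.9, 22.8, 21.3 and 24.9 CPM untreated and 67.0, 74.9, 62.2 and 60.1 CPM treated in wild-type cells. With alpha-synuclein, BAG2 stood at 21.5, 25.3, 22.9 and 22.8 CPM and 76.6, 71.3, 87.7 and 60.2 CPM. It rose without overlap in both, by 1.59 ± 0.13 (SE, adjusted p = 1.21e-09) and 1.66 ± 0.12 (SE, adjusted p = 4.88e-10), and the difference between genotypes was 0.07 ± 0.17 (SE, adjusted p = 0.819), with a 95% interval from -0.29 to 0.44.

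BAG4, which silences death receptors, and BAG6, which holds hydrophobic proteins for membrane insertion or degradation, fell in alpha-synuclein cells. BAG4 stood at 11.6, 23.3, 16.2 and 15.9 CPM untreated and 24.7, 17.8, 27.4 and 22.8 CPM treated in wild-type cells, overlapping, with a change of 0.47 ± 0.21 (SE, adjusted p = 0.0696). Alpha-synuclein cells held it at 23.5, 14.7, 20.4 and 17.1 CPM untreated and 9.79, 10.4, 8.91 and 11.4 CPM treated, and every treated library lay below every untreated one. The fall was 0.88 ± 0.21 (SE, adjusted p = 0.00192), and the changes differed by -1.35 ± 0.30 (SE, adjusted p = 0.00354). BAG6 stood at 125, 118, 74.8 and 109 CPM untreated and 98.02, 88.2, 91.4 and 105 CPM treated in wild-type cells and did not separate there (-0.16 ± 0.18 (SE, adjusted p = 0.47)). In alpha-synuclein cells it stood at 75.9, 102.8, 129 and 94.96 CPM and 64.8, 49.4, 50.4 and 46.7 CPM, a fall of 0.93 ± 0.18 (SE, adjusted p = 0.000179) without overlap. Its difference between genotypes, -0.77 ± 0.25 (SE, adjusted p = 0.0294), lost its call without any 1 of 7 libraries (-0.72 to -0.63), namely untreated replicate 3 of either genotype, wild-type 6-OHDA replicates 1 and 4, and alpha-synuclein 6-OHDA replicates 2, 3 and 4. BAG5, which inhibits Hsp70 refolding and the ligase parkin, stood at 148, 163, 174 and 169 CPM untreated and 89.5, 95.4, 102.6 and 89.3 CPM treated in wild-type cells, a fall of 0.80 ± 0.09 (SE, adjusted p = 1.56e-07). With alpha-synuclein, BAG5 stood at 133, 175, 149.7 and 146 CPM and 119, 122.5, 126 and 150.2 CPM with overlap and a fall of 0.22 ± 0.09 (SE, adjusted p = 0.0419), a call lost without untreated replicate 2, 3 or 4 or treated replicate 1, 2 or 3 (-0.23 to -0.14). The 2 changes of BAG5 differed by 0.58 ± 0.12 (SE, adjusted p = 0.00253). BAG1, an anti-apoptotic exchange factor, rose by 0.32 (adjusted p = 0.00138) in wild-type cells and changed by 0.02 (adjusted p = 0.838) in alpha-synuclein cells. Its difference of -0.30 (adjusted p = 0.0493) lost its call in 14 of the 16 fits that left out 1 library (-0.31 to -0.23), all but those without wild-type or alpha-synuclein untreated replicate 2.

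The co-chaperones of Hsp90 and Hsp70 had 5 of 6 members higher and none lower in wild-type cells, and 2 higher and none lower in alpha-synuclein cells. PTGES3, the Hsp90 co-chaperone p23, stood at 81.8, 84.8, 59.9 and 52.9 CPM untreated and 154, 137, 148 and 145 CPM treated in wild-type cells. It rose there by 1.07 ± 0.16 (SE, adjusted p = 7.89e-06), without overlap. Alpha-synuclein cells held it at 111, 74.9, 104 and 97.7 CPM untreated and 92.5, 78.1, 105 and 61.8 CPM treated, where the libraries overlapped and the change was -0.21 ± 0.16 (SE, adjusted p = 0.276). The difference between genotypes was -1.28 ± 0.22 (SE, adjusted p = 0.00083). STUB1, the ubiquitin ligase CHIP that marks Hsp70 and Hsp90 clients for degradation, stood at 21.2, 22.4, 24.4 and 21.5 CPM untreated and 27.7, 30.2, 29.7 and 46.2 CPM treated in wild-type cells. Every treated library lay above every untreated one, and the rise of 0.55 ± 0.17 (SE, adjusted p = 0.00948) lost its call without treated replicate 4, the highest (0.36, adjusted p = 0.0821). In alpha-synuclein cells STUB1 stood at 31.1, 23.99, 27.4 and 21.7 CPM untreated and 23.2, 24.7, 17.4 and 15.8 CPM treated, a change of -0.38 ± 0.16 (SE, adjusted p = 0.0594) with overlap, and the genotypes differed by -0.93 ± 0.24 (SE, adjusted p = 0.00719). CHORDC1, an Hsp90 partner with zinc-binding CHORD domains, rose without overlap in both genotypes, by 0.78 (adjusted p = 0.000386) and 1.03 (adjusted p = 1.06e-05). AHSA1, which speeds up the Hsp90 ATPase, rose by 0.62 (adjusted p = 0.0182) and 0.93 (adjusted p = 0.00074), and its call in wild-type cells was lost without untreated replicate 1 or 2 or treated replicate 1 or 3 (0.41 to 0.56). ST13, an Hsp70-interacting protein, rose by 0.51 (adjusted p = 0.00521) in wild-type cells and changed by 0.12 (adjusted p = 0.503) in alpha-synuclein cells. STIP1, the adaptor HOP that joins Hsp70 to Hsp90, changed by 0.05 (adjusted p = 0.587) and -0.17 (adjusted p = 0.0638).

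**Figure D2:**
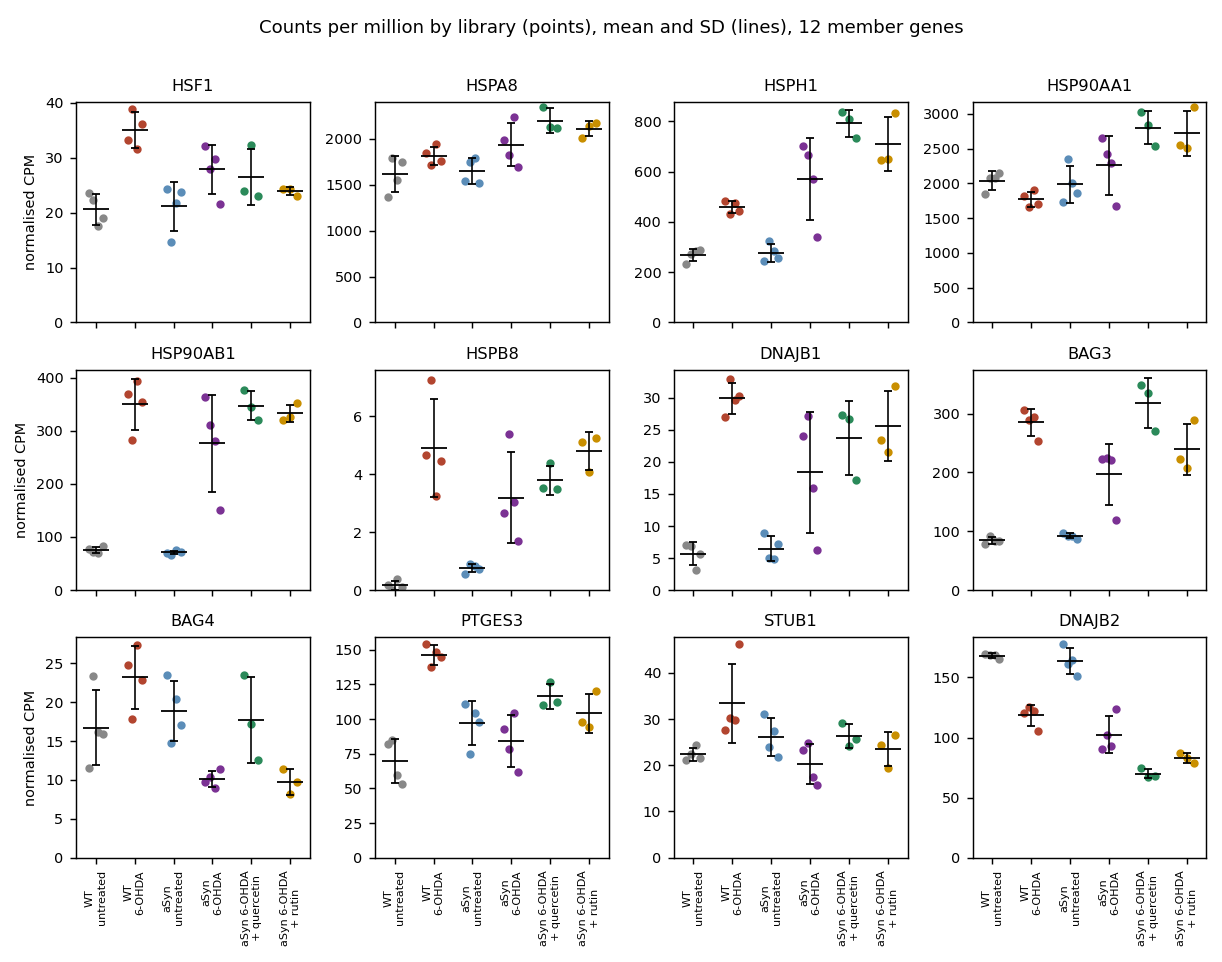
CPM (y axis, TMM-scaled, from 0) of 12 members in each library (points) of the 6 groups, with the mean and SD of each group as lines (n = 4, and n = 3 in the flavonoid groups). In HSP90AB1, HSPH1, DNAJB1 and BAG3 the lowest of the alpha-synuclein 6-OHDA points is replicate 4, and BAG4, PTGES3 and STUB1 were higher in treated wild-type than in treated alpha-synuclein cells.

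The TRiC subunits, which occupy fixed places in the same ring, did not move together. In wild-type cells 3 of the 8 rose and 2 fell, and in alpha-synuclein cells 3 rose and 1 fell, few genes to set against the shares of all genes given above. The summed level of the 8 ran from 690 to 855 CPM untreated and 659 to 795 CPM treated in wild-type cells, and from 749 to 857 CPM and 804 to 867 CPM in alpha-synuclein cells, so the ranges overlapped in both. CCT5 weighs most in this sum, with a mean of 421.2 CPM untreated and 273.3 CPM treated in wild-type cells. In alpha-synuclein cells its means were 427.3 and 316.7 CPM. The overlap therefore does not describe the other subunits, whose sum without CCT5 was not computed. TCP1, the alpha subunit, stood at 79.7, 126, 89.1 and 98.8 CPM untreated and 155, 131, 184 and 141 CPM treated in wild-type cells and rose by 0.63 ± 0.15 (SE, adjusted p = 0.00118). In alpha-synuclein cells it stood at 80.7, 117, 112 and 110.1 CPM and 204, 224, 194 and 146 CPM, a rise of 0.85 ± 0.14 (SE, adjusted p = 5.03e-05) without overlap (0.97 without treated replicate 4). CCT5, the epsilon subunit, fell in both genotypes. Its values were 372, 463, 416 and 434 CPM untreated and 268, 279.6, 282 and 263 CPM treated in wild-type cells, a fall of 0.62 ± 0.08 (SE, adjusted p = 2.05e-06). In alpha-synuclein cells they were 409, 452, 451 and 397 CPM and 275, 300.2, 319 and 372 CPM, a fall of 0.43 ± 0.08 (SE, adjusted p = 0.000213), and again no library overlapped (-0.52 without treated replicate 4). CCT2, the beta subunit, stood at 68.3, 63.5, 76.1 and 66.4 CPM untreated and 88.5, 85.4, 73.8 and 79.4 CPM treated in wild-type cells, a change of 0.27 ± 0.12 (SE, adjusted p = 0.0596) with overlap that passed the test without untreated replicate 3 (0.32). With alpha-synuclein, CCT2 stood at 71.6, 61.7, 80.7 and 65.1 CPM and 73.5, 88.8, 61.7 and 57.3 CPM, a change of -0.01 ± 0.11 (SE, adjusted p = 0.971).

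CCT6A, the zeta subunit, fell in wild-type cells and was not called in alpha-synuclein cells. It stood at 34.9, 26.8, 33.4 and 31.6 CPM untreated and 19.02, 26.9, 21.4 and 18.9 CPM treated in wild-type cells, overlapping in 1 library, and fell by 0.57 ± 0.19 (SE, adjusted p = 0.0182), a call lost without treated replicate 1 (-0.49). Alpha-synuclein cells held it at 23.5, 38.8, 33.5 and 39.6 CPM and 43.8, 21.5, 45.3 and 39.8 CPM, a change of 0.17 ± 0.17 (SE, adjusted p = 0.452). The difference of 0.73 ± 0.26 (SE, adjusted p = 0.0478) lost its call in 10 of the 16 fits that left out 1 library (0.60 to 0.73). Those were wild-type untreated replicates 1, 3 and 4, alpha-synuclein untreated replicates 1 and 3, wild-type 6-OHDA replicates 1 and 4, and alpha-synuclein 6-OHDA replicates 1, 3 and 4. CCT3, the gamma subunit, rose by 0.56 (adjusted p = 0.0217) and 0.53 (adjusted p = 0.0253), and lost its call without wild-type untreated replicate 3 or 4 or treated replicate 2 or 3 (0.39 to 0.53), and without alpha-synuclein untreated replicate 2 or 4 or treated replicate 3 (0.40 to 0.46). CCT7, the eta subunit, rose by 0.38 (adjusted p = 0.0327) in wild-type cells and changed by 0.07 (adjusted p = 0.721) in alpha-synuclein cells, and its call was lost without wild-type untreated replicate 1, 3 or 4 or treated replicate 1, 3 or 4 (0.32 to 0.38). CCT8, the theta subunit, changed by 0.16 (adjusted p = 0.525) in wild-type cells and rose by 0.47 (adjusted p = 0.0348) in alpha-synuclein cells, a call lost without untreated replicate 1, 3 or 4 or treated replicate 4 (0.30 to 0.43). CCT4, the delta subunit, held 1216 counts over all libraries, a row that likewise may not hold all of its reads, and changed by 1.03 (adjusted p = 0.169) and 0.89 (adjusted p = 0.153), the latter without overlap.

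**Figure D3:**
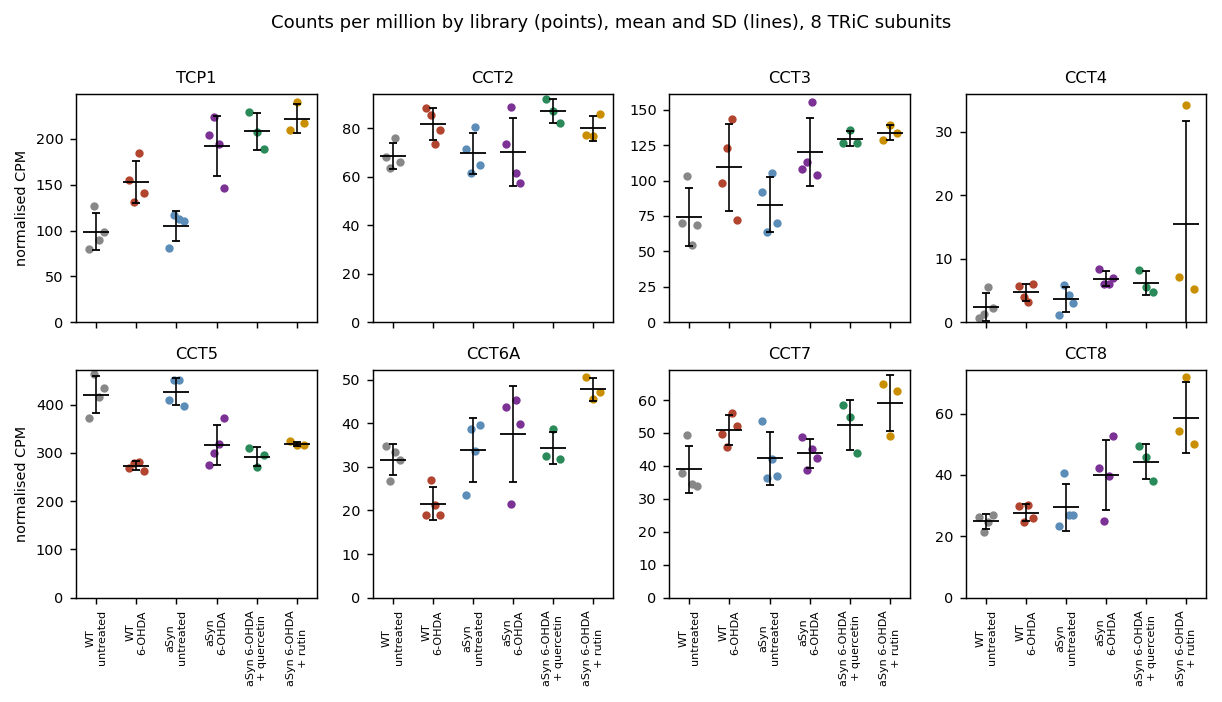
CPM (y axis, TMM-scaled, from 0) of the 8 TRiC subunits in each library (points) of the 6 groups, with group mean and SD as lines (n = 4, and n = 3 in the flavonoid groups). TCP1 was higher and CCT5 lower with 6-OHDA in both genotypes, and 1 rutin library stands at 34.1 CPM for CCT4.

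Alpha-synuclein overexpression alone moved no member past the test. None of the 42 was called (0 higher, against 0.373% of all genes, and 0 lower, against 0.277%) by edgeR's quasi-likelihood test or, among the 37 to which it gave an adjusted p, by DESeq2. By edgeR 4 had an unadjusted p under 0.05, namely HSPB8, PTGES3, ST13 and HSPA4L, and the share of all genes with such a p was not counted. The median change was 0.05, beside 0.000518 over all genes. Of the 42, HSPB8 and HSPA4L had groups that did not overlap (4.76%, against 5.34% of all genes), and PTGES3 changed by 0.48 (adjusted p = 0.225) and HSPA4L by -0.38 (adjusted p = 0.426).

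Among cells given 6-OHDA, 6 members were higher with alpha-synuclein (against 14.4% of all genes) and 7 lower (against 12.9%), shares of 14.3% and 16.7%. The higher ones were HSF2, HSPA4L, HSP90AA1, BAG5, CCT6A and CCT8, and the lower ones were HSPA2, BAG1, BAG3, BAG4, BAG6, PTGES3 and STUB1. BAG4 differed most, by -1.18 ± 0.22 (SE, adjusted p = 0.000612), and its libraries did not overlap. PTGES3 differed by -0.81 ± 0.16 (SE, adjusted p = 0.000829), BAG6 by -0.86 ± 0.18 (SE, adjusted p = 0.0015) and STUB1 by -0.72 ± 0.17 (SE, adjusted p = 0.00361), each without overlap. In the other direction CCT6A differed by 0.84 ± 0.19 (SE, adjusted p = 0.00265) with overlap and BAG5 by 0.47 ± 0.09 (SE, adjusted p = 0.000696) without. In this comparison 13 of the 42 members (31%) did not overlap, and the share of all genes was not counted. BAG3 was lower by 0.55 ± 0.15 (SE, adjusted p = 0.00866). Calls were lost for BAG3 without wild-type replicate 1 (-0.47), for BAG1 without wild-type replicate 3 or alpha-synuclein replicate 2 (-0.23 in both), for HSPA4L without wild-type replicate 4 (0.49) or alpha-synuclein replicate 1 (0.46), and for CCT8 without wild-type replicate 2 (0.54) or alpha-synuclein replicate 4 (0.38), with the replicate block (0.54) and after thinning (0.37). Thinning also removed the calls of HSPA2 (-0.38) and HSPA4L (0.43), and the fit without a low-count filter that of BAG1 (-0.23). With only the groups compared, BAG3 (-0.53), HSP90AA1 (0.37) and HSPA4L (0.58) were not called. CCT5, not called here, was called higher in 6 of the 8 fits that left out 1 library, and with RLE scaling (0.22), no low-count filter (0.28), DESeq2 (0.22) and thinning (0.27). Without alpha-synuclein replicate 4 the counts were 8 higher and 8 lower, CHORDC1 (0.55, adjusted p = 0.00528) and TCP1 (0.44, adjusted p = 0.0276) became higher, and HSPH1 became higher with alpha-synuclein by 0.50 ± 0.10 (SE, adjusted p = 0.00169) and DNAJB2 lower (-0.33 ± 0.07, SE, adjusted p = 0.00317).

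The effect of 6-OHDA itself differed between genotypes for 11 members, 4 with a higher change in alpha-synuclein cells (9.52%, against 11.2% of all genes) and 7 with a lower one (16.7%, against 10.5%). The 4 were HSF2, HSPA4L, BAG5 and CCT6A, and the 7 were HSPB8, BAG1, BAG3, BAG4, BAG6, PTGES3 and STUB1. For 7 of the 11 (HSF2, HSPA4L, HSPB8, BAG4, BAG5, PTGES3 and STUB1) the call was kept whichever single library was left out, but that of HSF2 was lost without both libraries with 4 barcode numbers (adjusted p = 0.0543), and those of STUB1 (adjusted p = 0.145) and HSPA4L (adjusted p = 0.0768) after thinning to the smallest library, by edgeR. The difference in the change of HSP90AB1 was -0.24 ± 0.24 (SE, adjusted p = 0.511), with a 95% interval from -0.75 to 0.26, and that of DNAJB1 -0.93 ± 0.48 (SE, adjusted p = 0.173), from -1.94 to 0.08. Without alpha-synuclein 6-OHDA replicate 4, HSPH1 (0.46, adjusted p = 0.025) and HSP90AA1 (0.51, adjusted p = 0.00769) were added with a higher change in alpha-synuclein cells, and DNAJB2 (-0.29, adjusted p = 0.0386) with a lower one. These interaction values set the alpha-synuclein comparison, whose groups lie on different lanes, against the wild-type comparison, whose groups share a lane.

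Quercetin changed 3 members in 6-OHDA-treated alpha-synuclein cells. BAG3 and HSPA2 were higher (4.76% of members, against 0.56% of all genes) and DNAJB2 was lower (2.38%, against 1.97%), and the other 39 did not pass the test. BAG3 stood at 349, 335 and 269.6 CPM with quercetin, above all 4 libraries with 6-OHDA alone listed above, a rise of 0.70 ± 0.16 (SE, adjusted p = 0.0241). HSPA2 stood at 33.96, 34.5 and 30.5 CPM, also above all 4, a rise of 0.60 ± 0.13 (SE, adjusted p = 0.0196). DNAJB2 stood at 74.2, 67.0 and 68.3 CPM, below all 4, a fall of 0.56 ± 0.09 (SE, adjusted p = 0.00874). The call of BAG3 was lost without any 1 of the 3 quercetin libraries (0.62 to 0.80), and that of HSPA2 without any of them or without 6-OHDA replicate 4 (0.46 to 0.65), while DNAJB2 kept its call in every such fit. Without 6-OHDA replicate 4, BAG3 rose by 0.51 ± 0.11 (SE, adjusted p = 0.0339) and DNAJB2 fell by 0.44 ± 0.08 (SE, adjusted p = 0.0137). With only the quercetin and 6-OHDA groups in the fit none of the 3 was called (adjusted p from 0.16 to 0.212).

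Over all 42 members the median change with quercetin was 0.19, beside -0.0208 over all genes. Its controls include 6-OHDA replicate 4, the library that stood apart, and the median without that library was not computed. By edgeR 14 had an unadjusted p under 0.05. The share of all genes with such a p was not counted, so that number cannot be read as particular to the members. BAG4 stood at 23.4, 17.2 and 12.5 CPM with quercetin and changed by 0.78 (adjusted p = 0.0736), and DNAJB4 stood at 61.2, 53.3 and 47.1 CPM and changed by 0.51 (adjusted p = 0.0659). In both genes every quercetin library lay above every library with 6-OHDA alone. Of the 42 members 12 (28.6%) did not overlap in this comparison, and the share of all genes was not counted. DESeq2 called both, BAG4 at 0.79 (adjusted p = 0.0217) and DNAJB4 at 0.52 (adjusted p = 0.0167). By edgeR DNAJB4 also passed after thinning (0.62, adjusted p = 0.049) and without 6-OHDA replicate 1 or 3 (0.59 in both). HSPH1 changed by 0.48 (adjusted p = 0.12), HSP90AB1 by 0.34 (adjusted p = 0.345), HSP90AA1 by 0.31 (adjusted p = 0.188), HSPA8 by 0.18 (adjusted p = 0.359) and DNAJB1 by 0.44 (adjusted p = 0.553). Without 6-OHDA replicate 4 these changes were, in the same order, 0.29, 0.12, 0.19, 0.12 and 0.09. HSF1 changed by -0.06 (adjusted p = 0.931), HSF2 by 0.11 (adjusted p = 0.633), STUB1 by 0.40 (adjusted p = 0.242) and HSPB1 by 0.23 (adjusted p = 0.818). Without that library they changed by -0.18, 0.12, 0.28 and -0.06. Among the TRiC subunits, of which 0 passed, TCP1 changed by 0.12 (adjusted p = 0.759) and CCT2 by 0.33 (adjusted p = 0.156), and CCT2 passed without 6-OHDA replicate 2 (0.45, adjusted p = 0.0387). Without 6-OHDA replicate 4 TCP1 changed by 0.008 and CCT2 by 0.23.

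Rutin moved no member past edgeR's quasi-likelihood test (0 higher, against 0% of all genes, and 0 lower, against 0%), while DESeq2 called 2 of the 25 to which it gave an adjusted p, BAG1 (0.28) and DNAJB2 (-0.33). By edgeR 10 members had an unadjusted p under 0.05, and the share of all genes with such a p was not counted. The median change was 0.24, beside -0.00636 over all genes. The controls again include 6-OHDA replicate 4, the library that stood apart, and the median without it was not computed. BAG1 stood at 97.5, 96.8 and 100.2 CPM with rutin and at 85.9, 73.8, 78.8 and 79.4 CPM with 6-OHDA alone, without overlap and with a change of 0.30 ± 0.08 (SE, adjusted p = 0.185). DNAJB2 stood at 86.9, 82.6 and 78.6 CPM, below all 4 libraries with 6-OHDA alone, a change of -0.31 ± 0.10 (SE, adjusted p = 0.223). With rutin 9 of the 42 members (21.4%) did not overlap, and the share of all genes was not counted. BAG3 stood at 222, 207 and 288 CPM and changed by 0.29 ± 0.16 (SE, adjusted p = 0.551), and HSPA2 at 28.7, 26.0 and 27.9 CPM by 0.34 ± 0.13 (SE, adjusted p = 0.342). CCT4 had 1 rutin library at 34.1 CPM beside 7.08 and 5.24 CPM in the other 2, and its change was 1.22 (adjusted p = 0.392). HSF1 changed by -0.20 (adjusted p = 0.739), HSF2 by 0.26 (adjusted p = 0.36), HSPA8 by 0.12 (adjusted p = 0.697), HSPH1 by 0.32 (adjusted p = 0.502), HSP90AA1 by 0.27 (adjusted p = 0.438) and HSP90AB1 by 0.27 (adjusted p = 0.617). Without 6-OHDA replicate 4 these changes were, in the same order, -0.32, 0.26, 0.07, 0.13, 0.15 and 0.06. HSPB1 changed by 0.03 (adjusted p = 0.996), DNAJB1 by 0.53 (adjusted p = 0.609), STUB1 by 0.22 (adjusted p = 0.725), TCP1 by 0.22 (adjusted p = 0.658) and CCT2 by 0.20 (adjusted p = 0.597). Without that library they changed by -0.27, 0.17, 0.09, 0.10 and 0.10.

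Quercetin and rutin, the flavonol and its glycoside, were compared directly in 1 pair, with doses and times not given in these sources. No member differed by edgeR's quasi-likelihood test (0 higher with quercetin, against 0% of all genes, and 0 lower, against 0.00602%) or, among 36 with an adjusted p, by DESeq2. By edgeR 7 members had an unadjusted p under 0.05, and the share of all genes with such a p was not counted. BAG3 was 0.42 ± 0.17 (SE, adjusted p = 0.453) higher with quercetin, with a 95% interval from 0.06 to 0.78. BAG4 was 0.84 ± 0.25 (SE, adjusted p = 0.272) higher without overlap, with an interval from 0.31 to 1.37. DNAJB2 differed by -0.25 ± 0.10 (SE, adjusted p = 0.454), with an interval from -0.46 to -0.04 and no overlap, and HSPA2 by 0.26 ± 0.14 (SE, adjusted p = 0.601), from -0.03 to 0.55. Between the compounds 11 of the 42 members (26.2%) did not overlap, and the share of all genes was not counted. The interval of BAG4 reaches beyond a 2-fold difference, and a p that misses the threshold does not show that the compounds act alike on these genes. The quercetin and rutin comparisons share the 4 libraries with 6-OHDA alone as controls.

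**Figure D4:**
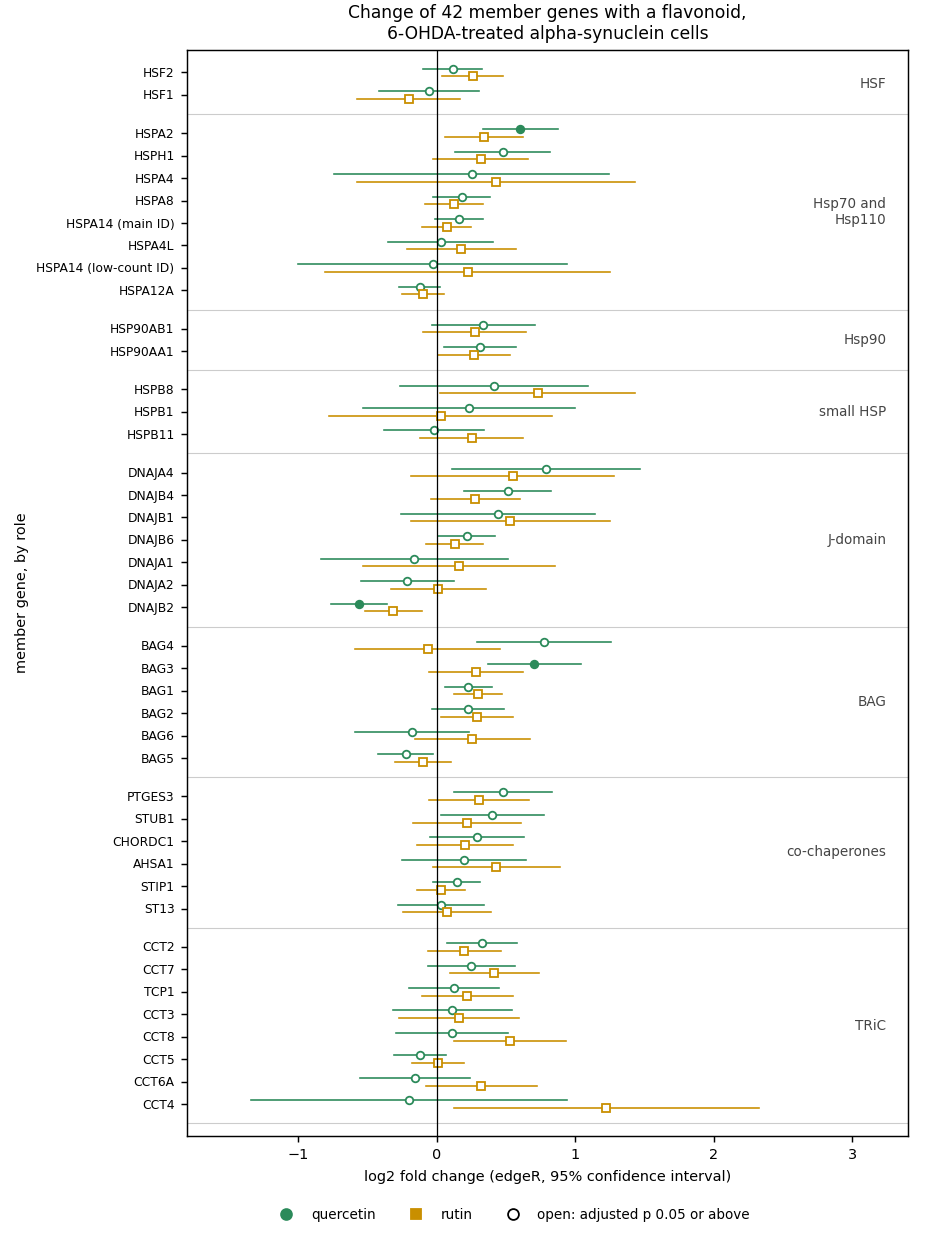
Log2 fold change against 6-OHDA alone (x axis, edgeR, bars are 95% confidence intervals) of the 42 tested members in alpha-synuclein cells given 6-OHDA with quercetin (circles) or rutin (squares). Only BAG3, HSPA2 and DNAJB2 with quercetin are filled (adjusted p under 0.05), and most points of both compounds lie right of 0. The controls of both include 6-OHDA replicate 4, the library that stood apart.

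Genes that work beside the members were read from 7 further lists, whose counts stand against the shares of all genes given above, 25.8% higher and 26.2% lower with 6-OHDA in wild-type cells and 22.9% and 24.2% in alpha-synuclein cells. Of the prefoldin and TRiC helper genes, which pass unfolded actin and tubulin to TRiC, 3 of 8 rose and 1 fell with 6-OHDA in both genotypes, with PDCL3, a phosducin-like TRiC cofactor, at 1.95 ± 0.32 (SE, adjusted p = 2.4e-05) in wild-type and 1.22 ± 0.29 (SE, adjusted p = 0.00145) in alpha-synuclein cells. Of 14 folding clients of TRiC, 4 rose and 4 fell in wild-type cells, and 5 rose and 6 fell in alpha-synuclein cells. The beta-tubulin TUBB4B rose by 3.39 ± 0.18 (SE, adjusted p = 5.41e-12) and 2.44 ± 0.17 (SE, adjusted p = 3.58e-10), and the beta-actin gene ACTB changed by -0.47 ± 0.07 (SE, adjusted p = 1.78e-05) and -0.88 ± 0.08 (SE, adjusted p = 5.47e-09). Among treated cells 8 of these clients were lower with alpha-synuclein and none higher (against 12.9% and 14.4% of all genes), among them the alpha-tubulin TUBA1A at -0.75 ± 0.15 (SE, adjusted p = 0.000675).

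Among HSF regulators and other HSF1 target genes, 4 of 9 rose and 2 fell in both genotypes. SERPINH1, the collagen chaperone Hsp47, rose by 2.17 ± 0.14 (SE, adjusted p = 7.32e-11) and 1.48 ± 0.14 (SE, adjusted p = 1.71e-08), and ZFAND2A, a stress-induced partner of the proteasome, by 1.5 ± 0.13 (SE, adjusted p = 2.94e-09) and 1.24 ± 0.12 (SE, adjusted p = 3.8e-08). Mitochondrial chaperones had 6 of 10 higher and 1 lower in wild-type cells, and 4 higher and 2 lower in alpha-synuclein cells, with HSPA9, the mitochondrial Hsp70, at 0.81 ± 0.08 (SE, adjusted p = 4.47e-08) and 1.03 ± 0.08 (SE, adjusted p = 1.41e-09). Of 12 other Hsp70 and J-domain proteins of the cytosol, 1 rose and 5 fell in wild-type cells, and 3 rose and 3 fell in alpha-synuclein cells, with DNAJB5 at -0.61 ± 0.10 (SE, adjusted p = 3.7e-05) and -0.73 ± 0.10 (SE, adjusted p = 3.89e-06). Of 17 other Hsp90 co-chaperones, 6 rose and 4 fell, and 4 rose and 5 fell, with FKBP5, a glucocorticoid-responsive immunophilin, at -1.07 ± 0.11 (SE, adjusted p = 2.7e-08) and -0.68 ± 0.10 (SE, adjusted p = 8.79e-06). The 3 other small heat shock proteins tested, HSPB6, HSPB7 and HSPB9, rose in wild-type cells, and none was called in alpha-synuclein cells. With quercetin, 1 gene of the 7 lists rose (TUBA1C, an alpha-tubulin, 0.42 ± 0.11 (SE, adjusted p = 0.0395)) and 1 fell (DNAJB5, -0.59 ± 0.11 (SE, adjusted p = 0.0116)), and with rutin none was called by edgeR.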

How the data were processed

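PolyA RNA was sequenced after isolation with InnuPREP and library preparation with MGIEasy reagents, per the labels' protocols. The values were estimated counts per Ensembl gene, deposited by the authors as whole numbers and not normalised. Trimmomatic 0.38 and kallisto 0.46.2 are named per the submitters' processing notes, with builds GRCh38 and hg38, while the sources used here do not give the annotation release, the summing to genes or the use of strand. Since kallisto divides reads among similar transcripts, levels of near-identical genes and their copies are uncertain.

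Each of the 22 columns was tied to its sample by its name. All estimated counts were whole, so rounding changed none. The test was edgeR 4.0.16 (R 4.3.3), run with filterByExpr with a minimum count of 10, TMM scaling, and glmQLFit and glmQLFTest on 6 group means over all 22 libraries. P-values were adjusted over all 16601 genes tested, and the steps were tested on simulated data. For treated against untreated wild-type libraries, the fit called 75.6% of genes given a log2 change of 1 or -1. It called 21.1% of genes given 0.5 or -0.5 and 0.0201% of those given no change. A missing call therefore does not show that a change of 0.5 is absent. No pair of replicates agreed within sampling noise (chi-square per degree of freedom 2.87 to 26.2). No label says that replicates were separate cultures, and p-values then reflect only the spread among these libraries, which may be technical. Intervals on counts cover counting error only.

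The members, the other gene lists and the rule for named genes were chosen with earlier results of these data known. The rule accounts for every member. It gives in full 14 set genes (HSF1, HSF2, HSPA1A, HSPA1B, HSPA8, HSPH1, HSP90AA1, HSP90AB1, HSPB1, DNAJB1, BAG3, STUB1, TCP1 and CCT2) and the 8 called members of smallest adjusted p in each comparison, and at most 4 genes of each other list. CCT5 and library values of BAG1, HSPA4 and CCT4 were added after their values were seen. The transcript that was overexpressed is not reported here. Alternatives were RLE scaling, no low-count filter, DESeq2 1.42.0, a replicate block, only the groups compared, both libraries with 4 barcode numbers left out, each library left out in turn and, chosen after seeing the data, all libraries thinned to the smallest total. Promoter windows are RefSeq's (GRCh38.p14).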

Additional observations from a re-analysis of the deposited data

Results flagged for a closer look

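Among 168 sets of 4 libraries (42 members in 4 groups), 10 had 1 library whose gap to its nearest neighbour exceeded Dixon's 95% critical share of the range, and chance flags about 1 in 20 sets. In untreated alpha-synuclein cells replicate 2 was the highest for HSPA12A (108.8 CPM), HSPB11 (23.72 CPM) and AHSA1 (34.03 CPM), and replicate 3 the lowest for HSPA4 (5.242 CPM). In untreated wild-type cells replicate 2 was the highest for HSPA4L (26.4 CPM) and replicate 3 for DNAJB6 (201.4 CPM). With 6-OHDA, wild-type replicate 4 was the lowest for HSPA2 (29.29 CPM) and the highest for STUB1 (46.17 CPM), alpha-synuclein replicate 1 was the highest for HSPA4L (16.92 CPM), and alpha-synuclein replicate 4 was the lowest for BAG3 (118.4 CPM). The call of STUB1 in wild-type cells was lost without that library, as given above, and for the other 9 no call with 6-OHDA in the same genotype was lost.

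The change with 6-OHDA differed between genotypes, by the interaction term of edgeR's quasi-likelihood fit, for 11 members. The difference on the log2 scale, alpha-synuclein minus wild type, was 0.54 for HSF2, 0.94 for HSPA4L, 0.58 for BAG5 and 0.73 for CCT6A. It was -3.04 for HSPB8, -1.28 for PTGES3, -1.35 for BAG4, -0.93 for STUB1, -0.77 for BAG6, -0.68 for BAG3 and -0.30 for BAG1. Sequencing lane and group cannot be told apart in these values.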

How the results depend on the processing

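Of 4933 values of members over 29 other settings, 4727 kept their side of the threshold, 145 lost a call, 61 gained one and 0 reversed. Values uncalled in both fits count as kept, and members to which a setting gave no adjusted p are not among the 4933. After thinning 39 members were tested. With 6-OHDA 26 of 29 calls were then kept in wild-type and 21 of 26 in alpha-synuclein cells. The number of members called with quercetin (3) was 0 with only the groups compared and 5 with DESeq2, and ran from 1 to 4 with 1 library left out (1 without any single quercetin library). With rutin (0) it was 2 with DESeq2. Without both libraries that carry 4 barcode numbers, both of untreated alpha-synuclein cells, 17 members were called with 6-OHDA in alpha-synuclein cells (26 otherwise) and 6 in the interaction (11 otherwise). The 6-OHDA calls lost were those of HSF1, HSPA8, HSPA4, the low-count row of HSPA14, HSPB1, DNAJA1, DNAJA4, BAG5 and CCT8 (adjusted p from 0.0518 to 0.256). The interaction calls lost were those of HSF2, BAG1, BAG3, BAG6 and CCT6A. In the interaction 7 were called after thinning, an alternative chosen after seeing the data, and 7 to 13 with 1 library left out (7 without wild-type 6-OHDA replicate 1). Leaving out 1 library gave 25 to 29 members with 6-OHDA in wild-type cells, 21 to 26 in alpha-synuclein cells, 12 to 16 between genotypes under 6-OHDA and 0 elsewhere. Over all genes, quercetin calls were 420, but 953 with DESeq2, 120 with the replicate block, 177 after thinning, 2 with only the groups compared and 26 to 896 with 1 library left out. Alpha-synuclein calls in untreated cells were 108, but 219 with DESeq2, 54 after thinning, 23 with only the groups compared, 11 without the 4-barcode libraries and 33 to 239 with 1 library left out. Rutin calls were 0, but 288 with DESeq2, 2 with RLE scaling, 4 with no low-count filter, 1 after thinning and up to 143 with 1 library left out (6-OHDA replicate 1). Calls of quercetin against rutin were 1, but 70 higher and 32 lower with DESeq2, 19 with only the groups compared, 8 with no low-count filter and 0 after thinning, and those of the interaction 3593, but 1978 without the 4-barcode libraries. Same-numbered libraries did not deviate together (correlations from -0.138 to 0.0776). The labels do not say whether equal numbers mark a shared culture, and with so few libraries a group these correlations cannot settle it. With the replicate block 30, 24, 0, 12, 9, 3, 0 and 0 members were called where 29, 26, 0, 13, 11, 3, 0 and 0 were without it. Other scalings moved the median of all genes by at most 0.0184. Summing HSPA1A with HSPA1B was not run, since HSPA1B was not analysed here. Treated wild-type replicates 2, 3 and 4 held 3115158, 2039602 and 1866396 counts, which limits what can be said of low members there.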
